A study of Mus musculus with 8 samples.

Results

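The genes described here are 44 genes of ribosome biogenesis and of RNA polymerase I, measured in spleen cells of leukemic mice. The choice goes by gene symbol and uses no measured value, although the list was drawn up with earlier results of these data known. Of the 44 genes, 42 had a probe set of their own on the array, out of 18193 genes that had one. Npm3 is not listed in the platform annotation, and the probe set of Mrto4 is shared with pseudogenes, so neither has a value here. For a gene with several probe sets, the brightest on average over the 8 arrays was used. All 42 lay above the median of all probe sets in each of the 4 animals, so none entered through the level of only 1 genotype, and all were among the 11387 genes tested. The truncated genotype expressed CBFb-SMMHCd179-221, a leukemia fusion protein that lacks a stretch needed for high-affinity binding of RUNX1, and its 2 leukemic mice were 3 weeks old. The full-length genotype expressed CBFb-SMMHC, the fusion with no such deletion, and its 2 leukemic mice had been given the mutagen ENU 2 months earlier. The sample labels call both genotypes chimeras, while the series text calls the full-length mice knock-in, and the share of fusion-expressing cells in the spleens is not stated in the sources used here. Genotype, ENU and age go together and cannot be told apart. Each genotype had 4 arrays, of which 1 came from animal 1 and 3 from animal 2. The series text speaks of 2 experiments for each genotype and does not say which arrays belong to which.

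A ribosome is built in the nucleolus. RNA polymerase I copies the ribosomal DNA into a long precursor RNA, small nucleolar ribonucleoproteins (snoRNPs) modify and help to fold it, and a large set of assembly factors, helicases and nucleases cuts it and joins it with ribosomal proteins into the small (40S) and the large (60S) subunit. The genes of this pathway are classical targets of the transcription factor MYC, and growing blood progenitors and leukemia cells express them strongly. The 42 genes were grouped by role into RNA polymerase I, nucleolar chaperones, snoRNP proteins, small-subunit factors and large-subunit factors.

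The start regions of 5 genes are shown for reference, and no expression result below uses them. Nob1, Ddx21 and Polr1b had the smallest p among the 42 genes, and Pes1 and Imp4 are the genes described in full whose start region holds the E-box CACGTG, the letters that MYC and its relatives bind. Sequences are from RefSeq (GRCm38.p6) and run 5′ to 3′ on the gene's strand, from 250 bases before to 50 bases after the annotated start, with CACGTG in capitals. The 5 regions lie at chr8:107424989-107425288, minus strand (Nob1), chr10:62602249-62602548, minus strand (Ddx21), chr2:129100746-129101045, plus strand (Polr1b), chr11:3963725-3964024, plus strand (Pes1) and chr1:34439579-34439878, plus strand (Imp4).
Nob1: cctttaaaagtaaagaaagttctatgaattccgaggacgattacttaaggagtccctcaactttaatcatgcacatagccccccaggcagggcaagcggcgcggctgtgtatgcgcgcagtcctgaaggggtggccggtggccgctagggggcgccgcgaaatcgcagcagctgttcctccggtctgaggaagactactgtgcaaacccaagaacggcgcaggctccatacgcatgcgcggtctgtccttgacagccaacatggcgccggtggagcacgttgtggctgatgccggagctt
Ddx21: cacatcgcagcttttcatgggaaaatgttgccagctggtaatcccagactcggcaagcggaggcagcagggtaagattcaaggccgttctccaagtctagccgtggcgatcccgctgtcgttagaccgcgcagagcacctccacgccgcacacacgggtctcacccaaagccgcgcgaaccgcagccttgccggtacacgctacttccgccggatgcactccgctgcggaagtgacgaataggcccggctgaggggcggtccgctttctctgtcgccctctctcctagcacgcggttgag
Polr1b: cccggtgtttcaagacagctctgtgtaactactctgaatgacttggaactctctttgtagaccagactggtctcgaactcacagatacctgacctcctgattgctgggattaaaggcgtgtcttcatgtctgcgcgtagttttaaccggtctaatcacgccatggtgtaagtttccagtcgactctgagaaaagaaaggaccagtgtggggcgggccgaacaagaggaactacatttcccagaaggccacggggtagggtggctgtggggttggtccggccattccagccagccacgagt
Pes1: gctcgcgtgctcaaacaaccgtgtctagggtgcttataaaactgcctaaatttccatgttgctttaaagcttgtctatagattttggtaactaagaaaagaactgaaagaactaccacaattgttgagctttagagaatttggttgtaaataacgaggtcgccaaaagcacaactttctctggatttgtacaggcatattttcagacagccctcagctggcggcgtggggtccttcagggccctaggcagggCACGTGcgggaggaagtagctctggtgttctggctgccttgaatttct
Imp4: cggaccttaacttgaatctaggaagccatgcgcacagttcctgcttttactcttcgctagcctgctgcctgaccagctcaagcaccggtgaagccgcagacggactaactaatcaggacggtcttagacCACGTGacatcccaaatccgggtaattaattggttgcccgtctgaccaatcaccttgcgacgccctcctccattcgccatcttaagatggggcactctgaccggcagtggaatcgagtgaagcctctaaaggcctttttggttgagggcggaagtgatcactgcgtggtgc

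The regions of Nob1, Ddx21 and Polr1b do not hold these letters. The E-box of Pes1 begins 2 bases after the start, and that of Imp4 121 bases before it. In the RefSeq table, 48 start regions of 300 bases matched 39 of the 44 listed genes. Of these 48 regions, 7 (14.6%) held CACGTG, against 9.96% of the 11822 regions of all genes tested and 7.15% of all 32851 regions. The 7 belong to Imp4, Nop2, Pes1, Rrn3, Tsr1, Utp20 and Wdr43. CCGGAAG on either strand, the core that ETS factors bind, stood in 13 regions of the list (27.1%), against 17.2% of the regions of all genes tested and 8.86% of all regions. A match in these letters was not tested as a binding site.

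The arrays of a genotype fell into 2 pairs that cut across the animals. Over all probe sets, the arrays numbered replicate 1 in the labels, which come from different animals, correlated at 0.987 in truncated and 0.989 in full-length mice. Arrays 2 and 3 of animal 2 correlated at 0.997 in each genotype. Array 1 of animal 2 was less like the other arrays of its own animal, at 0.976 with each in truncated and 0.954 with each in full-length mice. Whether the titles name the animals correctly was not tested, and the animal means, their SDs and the p-values below rest on them. The genotype difference was therefore also taken within the replicate 1 arrays and within arrays 2 and 3 of animal 2. Leukocyte genes (Ptprc, Coro1a, Laptm5, Cd53 and Spi1), which check the labelled cell type, were above the median of all probe sets in both genotypes, with list medians of 10.3 to 10.8 in truncated and 8.35 to 9.58 in full-length arrays (log2 expression). Values below are given in the order animal 1, then arrays 1, 2 and 3 of animal 2.

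Most ribosome biogenesis genes had a lower value in truncated animals, by small amounts, and no gene passed the test. Of the 42 genes, 38 (90.5%) had a lower value and 4 were higher, against 51.5% with a lower value among all genes tested. The median of the 42 differences was -0.29, against -0.01 for all genes (log2, truncated minus full-length), and the differences ran from -0.96 for Nob1 to 0.39 for Imp4. The median level of the 42 genes was 8.47 in animal 1 and 8.40 in animal 2 of the truncated mice, against 8.91 and 8.59 in the full-length mice. Without full-length animal 1 the median difference was -0.19, and without full-length animal 2 it was -0.42.

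In limma on the 4 animal means, 0 of the 42 genes passed an adjusted p of 0.05, with 0.00% of all genes called, and the smallest adjusted p was 0.170. At an unadjusted p under 0.05, 3 genes were lower (7.14%), against 5.30% of all genes, and 0 were higher, against 8.82%. The share of lower genes at that p is close to that of all genes. The count was 0 without truncated animal 1, against 1.47% of all genes, and 8 (19.0%) without full-length animal 2, against 11.0% of all genes. The 8 arrays did not overlap between the genotypes for 12 genes with lower values (28.6%), against 8.76% of all genes, and for 1 gene with a higher value, against 10.3%. Arrays of an animal are not independent, so this count is a description. The gap between the nearest arrays ran from 0.003 for Noc2l to 0.50 for Nob1 on the log2 scale among the 12.

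**Figure D1:**
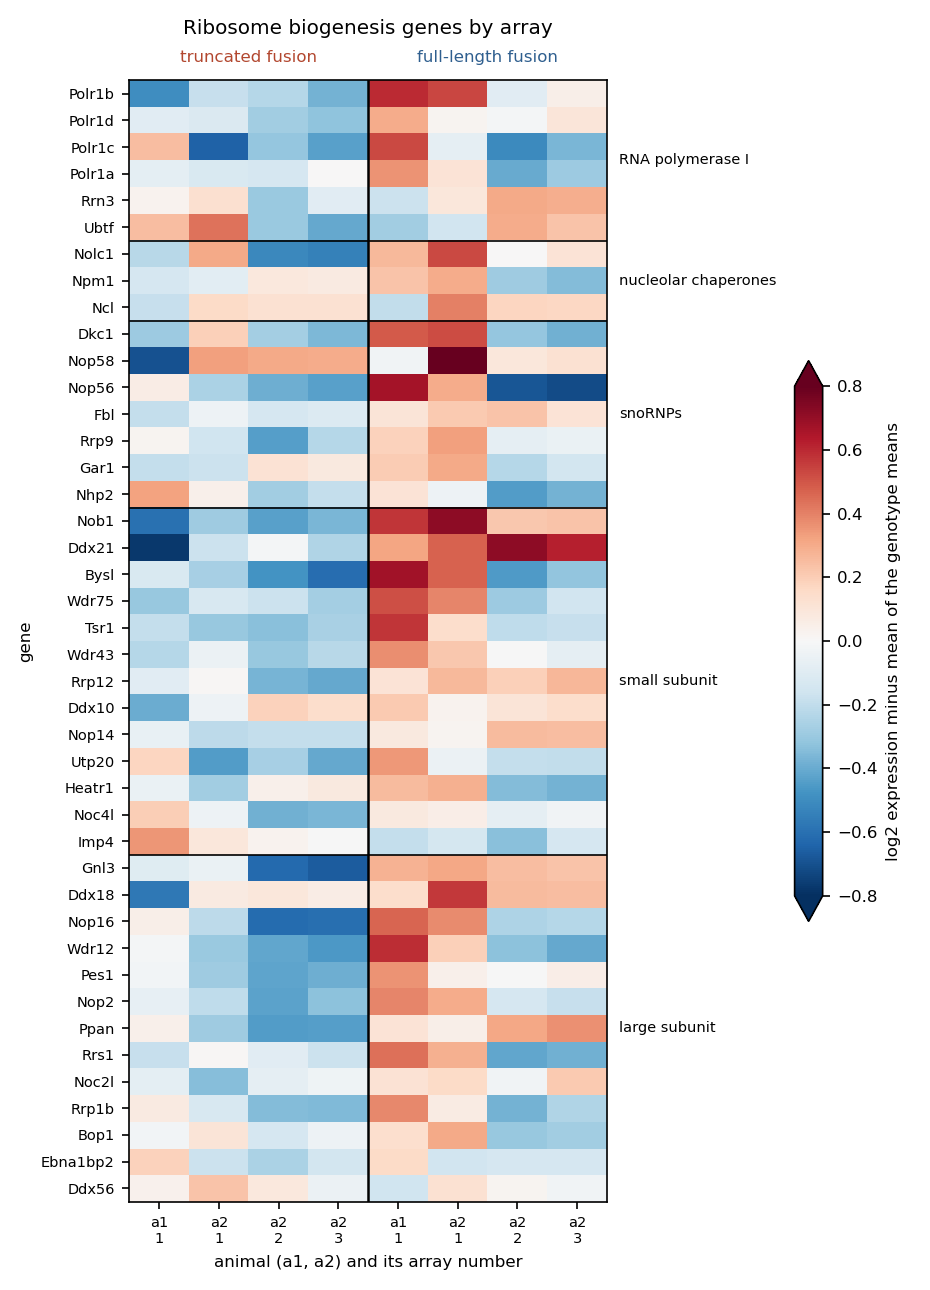
Log2 expression of the 42 genes (rows, by role) on the 8 arrays (columns, truncated left of full-length), each value minus the mean of the genotype means of that gene; colours end at 0.8 in either direction. Each truncated array is below 0 for 28 to 34 of the 42 genes. Full-length arrays 2 and 3 of animal 2 are below 0 for 27 and 24 genes, and the full-length replicate 1 arrays for 6 genes each.

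The replicate 1 arrays of the full-length mice carried much of the difference of the 42 genes. Without them, which leaves arrays 2 and 3 of animal 2 as the only full-length arrays, 23 of the 42 genes had a lower value and the median difference was -0.04. The truncated means then still hold the replicate 1 arrays, whereas with arrays 2 and 3 of animal 2 alone in both genotypes, 27 genes had a lower value and the median was -0.14. With the replicate number as a block (replicate 1 against 2 and 3) and a random block for the animal, fitted to the 8 arrays, 2 genes passed, Nob1 (-0.91, limma, adjusted p = 0.0248) and Ddx21 (-0.87, adjusted p = 0.0353). They are 4.76% of the 42 genes, against 2.65% of all genes called lower in that fit. It used 1 correlation (0.399) for all arrays of an animal. Arrays 2 and 3 of animal 2 were more alike than either was to array 1, and genotype varied only between the 4 animals. The p-values of the block fit may therefore be too small. On the replicate 1 arrays alone, 1 array for each of the 4 animals, 5 genes passed, all with lower values. They were Nob1 (-1.09, adjusted p = 0.000563), Polr1b (-0.91, adjusted p = 0.00299), Ddx21 (-0.87, adjusted p = 0.00718), Bysl (-0.77, adjusted p = 0.0101) and Wdr75 (-0.67, adjusted p = 0.0243). These 5 genes are 11.9% of the 42, and 11.8% of all genes were called lower in the same fit, so the share is that of the background.

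RNA polymerase I genes comprised 4 subunit genes, the initiation factor gene Rrn3 and Ubtf, the gene of the upstream binding factor that keeps ribosomal DNA active. Of these 6, 5 had a lower value, with a median difference of -0.19. Polr1b, the second largest subunit, was at 7.18, 7.49, 7.45 and 7.29 in truncated arrays, against 8.27, 8.21, 7.58 and 7.72 in full-length arrays. Every truncated array lay below every full-length array, by 0.09 at the nearest. The animal means were 7.29 ± 0.16 in truncated and 8.05 ± 0.31 in full-length mice (SD, n = 2 animals each), a 1.69-fold lower level (limma, adjusted p = 0.289).

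Polr1d, a small subunit shared with RNA polymerase III, was at 10.34, 10.32, 10.16 and 10.12 in truncated arrays, against 10.73, 10.46, 10.42 and 10.53 in full-length arrays. The arrays did not overlap, although the difference was only -0.33 (limma, adjusted p = 0.625). Of its 3 other probe sets, 2 differed by -0.27 and -0.33, and the third by 0.12.

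Polr1a, the catalytic subunit, was at 7.84, 7.79, 7.78 and 7.92 in truncated arrays, against 8.27, 8.02, 7.51 and 7.62 in full-length arrays. Here the truncated arrays lay between the 2 pairs of full-length arrays. The difference was -0.17 (limma, adjusted p = 0.869), or 0.11 without full-length animal 1. Its other probe sets brighter than the median of all probe sets differed by -0.34 and -0.52. Polr1c, the other subunit shared with RNA polymerase III, had a difference of -0.22, and Rrn3 of -0.06.

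Ubtf had the only higher value of this group, with 8.62, 8.82, 8.08 and 7.97 in truncated arrays, against 8.10, 8.23, 8.68 and 8.61 in full-length arrays. Its direction turned between the array pairs. On the replicate 1 arrays the truncated mice were higher by 0.56, and on arrays 2 and 3 the difference was -0.62, so the mean difference of 0.16 (adjusted p = 0.876) stands for neither pair. It was -0.0123 without truncated animal 1 and -0.0471 without full-length animal 1.

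The nucleolar chaperone genes included 2 with small differences, Npm1 and Ncl, and 1 with a larger, Nolc1. All 3 measured members had a lower value, with a median difference of -0.11, and the arrays overlapped for each. Nolc1, which carries snoRNPs between the Cajal body and the nucleolus, was at 8.61, 9.13, 8.31 and 8.28 in truncated arrays, against 9.09, 9.35, 8.83 and 8.94 in full-length arrays. Each truncated array was below the full-length array of the same animal and array number, and the difference was -0.47 (limma, adjusted p = 0.415).

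Npm1, the nucleolar chaperone that is often mutated in human acute myeloid leukemia, was at 11.57, 11.62, 11.79 and 11.78 in truncated arrays, against 11.93, 12.001, 11.42 and 11.36 in full-length arrays. The truncated replicate 1 arrays were lower and the truncated arrays 2 and 3 higher than their full-length counterparts (-0.37 and 0.39), and the difference of -0.11 became 0.0561 without full-length animal 1. Ncl, nucleolin, was at 11.65, 11.99, 11.96 and 11.96 in truncated arrays, against 11.64, 12.24, 12.01 and 11.999 in full-length arrays, a difference of -0.05 (adjusted p = 0.961). Both genotypes had their lowest Ncl value in the array of animal 1, and the difference was 0.11 without truncated animal 1 and 0.17 without full-length animal 2. Of its 4 other probe sets, 3 differed by -0.30, -0.30 and -0.17, and the fourth by 0.78.

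The snoRNP proteins form 2 classes. Fbl (fibrillarin, the methyltransferase), Nop56 and Nop58 are the core of box C/D particles that guide 2'-O-methylation, with Rrp9 particular to the U3 particle, and Dkc1 (dyskerin, the pseudouridine synthase), Gar1 and Nhp2 belong to box H/ACA particles. Of these 7 genes 6 had a lower value, with a median difference of -0.28, but on arrays 2 and 3 only 2 were lower, Fbl and Rrp9. Fbl was at 10.69, 10.84, 10.75 and 10.77 in truncated arrays, against 10.98, 11.09, 11.11 and 10.99 in full-length arrays. It was the only member of the group whose arrays did not overlap, and its difference was nearly the same on the replicate 1 arrays (-0.27) and on arrays 2 and 3 (-0.29). The adjusted p was 0.658 in limma. Its other probe set differed by -0.54.

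Dkc1 was at 9.48, 9.96, 9.50 and 9.41 in truncated arrays, against 10.26, 10.29, 9.46 and 9.38 in full-length arrays. Its difference of -0.43 (limma, adjusted p = 0.587) came from the replicate 1 arrays, since arrays 2 and 3 of the genotypes differed by 0.03. Its 2 other probe sets differed by -0.47 and -0.41. Rrp9 was at 8.28, 8.10, 7.82 and 8.03 in truncated arrays, against 8.44, 8.59, 8.19 and 8.20 in full-length arrays, with overlap through the array of truncated animal 1.

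Nop56 and Nop58 are named here after their values were seen. Nop56 was at 9.89, 9.58, 9.44 and 9.40 in truncated arrays, against 10.50, 10.12, 9.14 and 9.12 in full-length arrays. The full-length replicate 1 arrays were the highest of the 8 and the full-length arrays 2 and 3 the lowest. Nop58 was at 9.07, 10.09, 10.07 and 10.06 in truncated arrays, against 9.73, 10.81, 9.85 and 9.88 in full-length arrays, and here the array of animal 1 was the lowest of each genotype. Nhp2 had the higher value in truncated mice, at 10.82, 10.53, 10.22 and 10.30, against 10.61, 10.46, 10.05 and 10.12 in full-length mice, a difference of 0.18 with overlapping arrays (adjusted p = 0.864). It was -0.0558 without truncated animal 1 and -0.0221 without full-length animal 2.

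The small-subunit factors held the largest differences of the list. Of 13 genes 12 had a lower value, with a median difference of -0.35. For 4 of them (Nob1, Ddx21, Rrp12 and Nop14) the arrays did not overlap (30.8%, against 8.76% of all genes). Nob1, the endonuclease that makes the last cut at the 3′ end of 18S rRNA, was at 8.05, 8.37, 8.22 and 8.29 in truncated arrays, against 9.22, 9.37, 8.86 and 8.88 in full-length arrays. The genotypes were separated by 0.50 at the nearest arrays, the widest gap of the 42 genes. The animal means were 8.17 ± 0.17 in truncated and 9.13 ± 0.13 in full-length mice (SD, n = 2 animals each), which is 1.94-fold lower (limma, adjusted p = 0.170).

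Ddx21, a nucleolar helicase that links RNA polymerase I transcription with rRNA processing, was at 8.11, 8.71, 8.87 and 8.65 in truncated arrays, against 9.20, 9.36, 9.60 and 9.50 in full-length arrays. The nearest arrays lay 0.33 apart. The means of 8.43 ± 0.45 in truncated and 9.34 ± 0.20 in full-length mice make a 1.89-fold lower level (limma, adjusted p = 0.275). The replicate 1 arrays minus arrays 2 and 3 came to -0.34 in truncated and -0.27 in full-length mice, and the genotype difference was -0.87 on the replicate 1 arrays and -0.79 on arrays 2 and 3. Its other probe set differed by -0.44.

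Wdr75, a subunit of the complex that binds the 5′ part of the precursor RNA, was at 7.97, 8.14, 8.10 and 8.003 in truncated arrays, against 8.79, 8.66, 7.98 and 8.12 in full-length arrays. The full-length replicate 1 arrays stood apart from the other 6 arrays, and the difference of -0.50 did not pass (limma, adjusted p = 0.514). Bysl, a factor of late 40S assembly named after its values were seen, had the same shape, at 8.22, 8.07, 7.86 and 7.73 in truncated arrays, against 9.02, 8.81, 7.89 and 8.03 in full-length arrays.

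Imp4, a protein of the U3 snoRNP, which pairs with the precursor RNA, was the exception among the small-subunit factors. It was at 8.70, 8.44, 8.38 and 8.35 in truncated arrays, against 8.16, 8.21, 8.01 and 8.21 in full-length arrays. All truncated arrays lay above all full-length arrays, with a difference of 0.39 (limma, adjusted p = 0.552). This direction depended on the probe set, as its 2 other probe sets differed by -0.60 and 0.52. The remaining 8 small-subunit genes (Wdr43, Tsr1, Rrp12, Nop14, Ddx10, Utp20, Heatr1 and Noc4l) differed by -0.49 to -0.06.

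**Figure D2:**
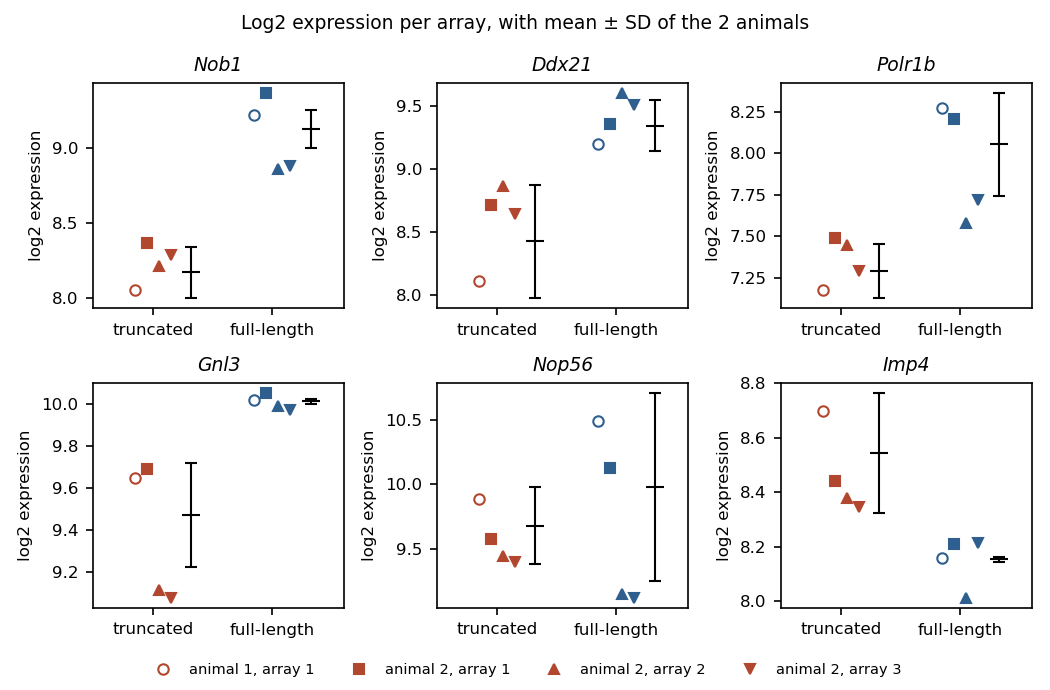
Log2 expression of 6 genes, picked after their values were seen, on each array, truncated left of full-length, with the mean ± SD of the 2 animals at the right of each group; axes differ between genes and do not start at 0. The arrays do not overlap for Nob1, Ddx21, Polr1b, Gnl3 and Imp4, while the full-length arrays of Nop56 lie both above and below all truncated arrays.

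Among the large-subunit factors, Gnl3 had the most negative difference. Of 13 genes 12 had a lower value, with a median difference of -0.35. The arrays did not overlap for 5 (Gnl3, Ddx18, Pes1, Ppan and Noc2l), which is 38.5%, against 8.76% of all genes. Gnl3, nucleostemin, a nucleolar GTPase of stem and progenitor cells, was at 9.65, 9.69, 9.12 and 9.08 in truncated arrays, against 10.02, 10.05, 9.99 and 9.97 in full-length arrays. The full-length arrays were nearly equal, and the truncated arrays formed 2 pairs below them. The difference was -0.54 (limma, adjusted p = 0.407), with -0.37 on the replicate 1 arrays and -0.88 on arrays 2 and 3.

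Ddx18, a helicase of early 60S assembly, was at 8.17, 8.82, 8.83 and 8.80 in truncated arrays, against 8.89, 9.31, 8.997 and 8.99 in full-length arrays. The array of truncated animal 1 stood below the other 3, the highest of which was 0.05 below the lowest full-length array. The difference was -0.50 (limma, adjusted p = 0.556). Pes1, which forms the PeBoW complex with Bop1 and Wdr12, was at 9.18, 8.92, 8.78 and 8.81 in truncated arrays, against 9.56, 9.24, 9.20 and 9.25 in full-length arrays. The difference was -0.39 (adjusted p = 0.606), and the nearest arrays were 0.02 apart.

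The other members of the PeBoW complex overlapped between the genotypes, with differences of -0.41 for Wdr12 and -0.04 for Bop1. Ppan, a 60S factor named after its values were seen, was at 8.83, 8.51, 8.35 and 8.35 in truncated arrays, against 8.90, 8.84, 9.10 and 9.16 in full-length arrays, so its difference was larger on arrays 2 and 3 (-0.78) than on the replicate 1 arrays (-0.20). Ddx56, a helicase of 60S assembly, was the exception, at 7.23, 7.42, 7.28 and 7.15 in truncated arrays, against 7.03, 7.32, 7.22 and 7.17 in full-length arrays (difference 0.12, adjusted p = 0.880). The remaining 6 large-subunit genes, Nop2 (an rRNA methyltransferase), Nop16, Noc2l, Rrs1, Rrp1b and Ebna1bp2, differed by -0.43 to -0.01.

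Within the array pairs, 35 of the 42 genes were lower in truncated mice on the replicate 1 arrays, with a median difference of -0.35, and 27 on arrays 2 and 3 of animal 2, with a median of -0.14. Over all genes tested the shares with a lower value were 49.7% and 52.8%. In all, 23 genes were lower in both pairs, 12 were lower on the replicate 1 arrays but not on the others, 4 the reverse, and 3 were higher in both. Whether the difference depends on the array pair was not tested, since arrays 2 and 3 come from 1 animal a genotype.

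**Figure D3:**
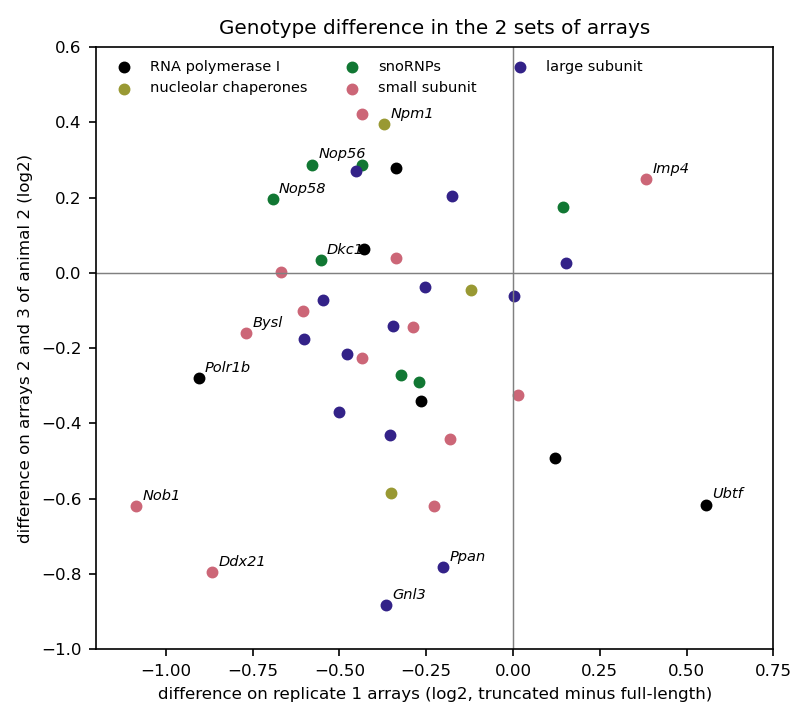
Genotype difference (log2, truncated minus full-length) of each of the 42 genes on the replicate 1 arrays (x axis) against that on arrays 2 and 3 of animal 2 (y axis), coloured by role. The points to the lower left are the 23 genes lower in both sets, Nob1 and Ddx21 among them, and Ubtf lies to the lower right.

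Markers of several other cell types moved with the array pairs and with genotype. Of 23 listed symbols of the erythroid lineage 16 were measured, and their list median was 9.05, 8.94, 7.93 and 7.90 in truncated arrays, against 10.3, 10.2, 7.67 and 7.81 in full-length arrays. Their summed unlogged level ran from 9057 to 15783 in truncated and from 10106 to 29189 in full-length arrays, and only the probe set of Hba-a1 lay below the median of all probe sets on every array. The 8 primary granule genes had list medians of 10.0 to 11.1 in truncated arrays, against 5.33, 4.99, 9.51 and 9.56 in full-length arrays, and summed levels of 12742 to 18145 in truncated and 802 to 7505 in full-length arrays. None of these 8 lay below the median on every array. All 9 secondary granule genes tested were higher in truncated mice with no overlap of arrays (median difference 2.97), with list medians of 11.0 to 11.6 in truncated and 6.58 to 8.94 in full-length arrays. All 12 macrophage genes had a higher value (median 1.61), 8 of them with no overlap, as did all 5 leukocyte genes (median 0.90), 2 of them with no overlap. Over all genes tested, 10.3% had a higher value with no overlap of arrays. All 4 B cell, 6 plasma cell and 4 megakaryocyte genes tested had a higher value (medians 0.97, 0.56 and 0.36). Of 5 T cell genes tested 4 had a lower value (median -0.08). Of 6 progenitor genes tested 3 had a lower and 3 a higher value (median 0.04). By list median, the full-length replicate 1 arrays were the highest in erythroid genes and the lowest in granule genes. On arrays 2 and 3, the ribosome biogenesis genes differed by a median of -0.14 and the erythroid genes by 0.01 (7 lower and 7 higher). The medians there were 1.11 for primary granule, 1.68 for secondary granule and 1.15 for macrophage genes. By median, the leukocyte genes turned direction on these arrays (-0.13, with 3 lower and 2 higher). The part of cell composition in these differences was not tested, and in bulk spleen fewer cells of a type and less RNA per cell cannot be told apart.

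Within a genotype, 25 of the 42 genes were higher in both replicate 1 arrays than in both of arrays 2 and 3 in full-length mice (median difference 0.34), against 34.3% of all genes, and 19 in truncated mice (median 0.18), against 36.7% of all genes. In each genotype 5 of the 42 were lower in both, against 36.2% of all genes in full-length and 27.9% in truncated mice. Over all genes the median differences were -0.02 in full-length and 0.04 in truncated mice. Beside these, the median difference between the genotypes was -0.29. Arrays 2 and 3 of animal 2 differed by a median of 0.046 over the 42 genes in truncated and 0.055 in full-length mice, against 0.231 in truncated and 0.157 in full-length mice between the replicate 1 arrays of the 2 animals.

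Further genes of the pathway mostly had the same direction, except those of RNA polymerase I and snoRNP assembly, whose shares were near that of all genes. Another 135 were tested (other RNA polymerase I, snoRNP, small-subunit and large-subunit factors and the RNA exosome). Of these, 112 (83.0%) had a lower value in truncated mice, against 51.5% of all genes tested. The other 23 were higher, and the median difference of the 135 was -0.23. None passed an adjusted p of 0.05 in limma, and 7 were lower at an unadjusted p under 0.05 (5.19%, against 5.30% of all genes). The arrays did not overlap for 29 with lower (21.5%, against 8.76% of all genes) and 2 with higher values (10.3% of all genes). By role, the counts with a lower value were 46 of 51 for large-subunit, 39 of 46 for small-subunit and 15 of 17 for exosome and nuclease genes. They were 7 of 12 (58.3%) for RNA polymerase I and 5 of 9 (55.6%) for snoRNP assembly genes, near the 51.5% of all genes.

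Mphosph6, an exosome cofactor, was at 7.76, 7.78, 7.65 and 7.67 in truncated arrays, against 9.27, 9.18, 8.19 and 8.28 in full-length arrays (difference -1.18, limma, adjusted p = 0.193). Gtpbp4, a GTPase of 60S assembly, was at 8.10, 8.25, 8.64 and 8.64 in truncated arrays, against 9.36, 9.07, 9.15 and 9.13 in full-length arrays (difference -0.93, adjusted p = 0.214). Nol8, a nucleolar protein, differed by -0.92 (adjusted p = 0.225), with no overlap of arrays for any of the 3. Among those with higher values, the smallest p were those of the small-subunit factor Wdr46 (0.40, adjusted p = 0.508), the snoRNP assembly factor Pih1d1 (0.30, adjusted p = 0.665) and Utp3 (0.34, adjusted p = 0.785). The arrays of Utp3 overlapped, while those of Wdr46 and Pih1d1 did not.

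The structural proteins of the ribosome did not have this pattern of signs. Of 46 cytosolic ribosomal protein genes 21 had a lower value and 25 were higher, at a median of 0.02, and of 76 mitochondrial ribosomal protein genes 34 were lower and 42 higher, with a median of 0.04. Of 19 proliferation genes 7 had a lower value and 12 were higher, at a median of 0.01. The array pairs differed in this list. On the replicate 1 arrays 10 of the 19 were lower and 9 higher (median -0.0004). In the other array pair 3 were lower and 16 higher (median 0.21). These medians are given side by side, and the lists were not tested against each other. The list median of the cytosolic genes was 12.8 to 12.9 on every array, near the array maxima of 13.7 to 14.1. Whether differences are compressed at that level was not tested. Genes of RNA polymerase III, which makes 5S rRNA and tRNAs, had a median difference of -0.18, with 9 of 11 lower. Besides subunits, this list holds the initiation factor genes Brf1 and Bdp1 and the gene of the repressor Maf1. Maf1 is among the 9 lower genes (-0.34).

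Myc itself was at 8.66, 9.12, 8.61 and 8.58 in truncated arrays, against 9.38, 9.45, 9.39 and 9.41 in full-length arrays. The full-length arrays were nearly equal in both pairs, and every truncated array lay below them, with a difference of -0.69 (limma, unadjusted p = 0.0222, adjusted p = 0.256).

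**Figure D4:**
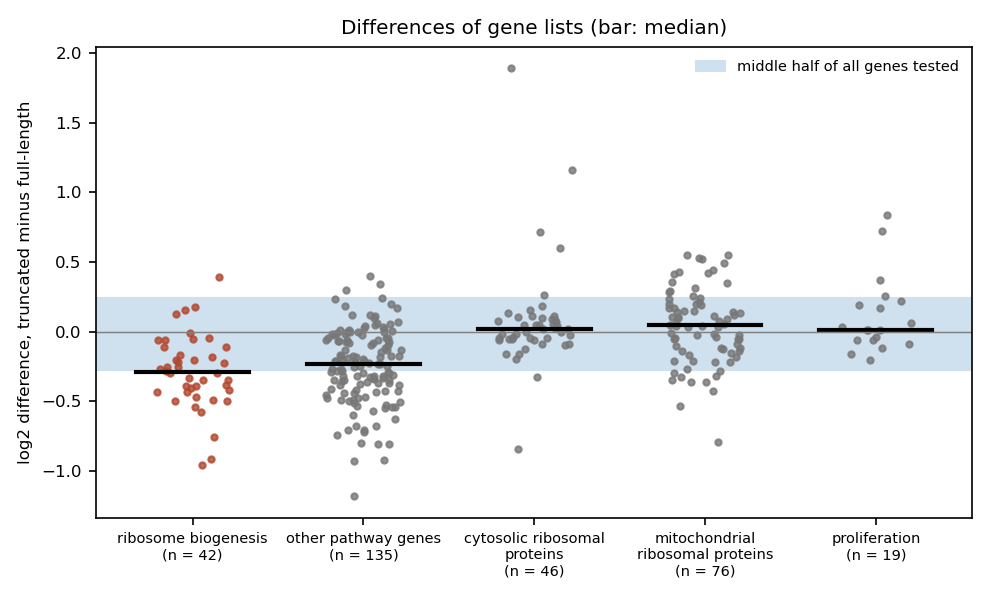
Log2 difference (truncated minus full-length) of each gene in 5 lists, with the list median as a bar; the shaded band holds the differences of all genes tested between their 25th and 75th percentiles (-0.28 to 0.24). The medians are -0.29 for the 42 ribosome biogenesis genes, -0.23 for the other pathway genes and 0.01 to 0.04 for the remaining lists.

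Probe sets of the same gene mostly had the same direction. Of 41 further probe sets of the 42 genes that were brighter than the median of all probe sets, 34 had the direction of the brightest probe set and 7 the opposite direction (those of Ebna1bp2, Imp4, Ncl, Polr1d, Rrp1b, Ubtf and Wdr43). For 13 of the 42 genes the probe set used has an identifier ending in s_at, x_at or a_at, which can match related sequences or several transcripts.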

How the data were processed

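Expression of spleen cells from 2 truncated and 2 full-length leukemic mice was measured on 8 Affymetrix mouse arrays. The deposited values are log2 expression per probe set, made with RMA per the submitters' processing notes, with no version given. The log base was read from the values. RMA draws dim values together, so differences of dim genes are understated. For arrays, their number limits the precision. Of 45101 probe sets, 34945 have 1 gene in the platform annotation, 932 several and 9160 none, besides 64 controls.

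Arrays of an animal were averaged. A gene was tested if 2 or more animals exceeded 4.76, the median of all probe sets. Genotypes were compared by limma 3.58.1 (lmFit, eBayes; R 4.3.3, 2 residual and 3.24 prior degrees of freedom), with Benjamini-Hochberg adjustment over the 11387 genes. With 2 animals a genotype, the smallest two-sided p of an exact permutation test is 0.333. Whether repeat arrays came from separate RNA extractions is not stated, nor whether the animals were raised together.

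The members, lists and alternatives were chosen with earlier results of these data known. Named in full are the 3 members of each role with the smallest p, every member with a higher value, and Myc. The 3 other pathway genes per direction with the smallest p are also named, but only Mphosph6 and Gtpbp4 with every array. Arrays of the same replicate number in the 2 genotypes deviated together from their group means over the genes tested (r = 0.12 to 0.30), so values with the replicate block are given where they change a call.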

Additional observations from a re-analysis of the deposited data

Results flagged for a closer look

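Of 38 sets of 4 arrays, 19 genes described in full in each of 2 genotypes, 4 had an array that stood far from the nearest of the others relative to the range of the set. Chance flags about 1 in 20 such sets, and the arrays of a set share animals. The 4 were Ncl in the array of truncated animal 1 (11.65), Dkc1 in array 1 of truncated animal 2 (9.96), Ddx18 in the array of truncated animal 1 (8.17) and Pes1 in the array of full-length animal 1 (9.56).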

How the results depend on the processing

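With 2 animals a genotype, precision was limited throughout. The median difference of the 42 genes was -0.19 without full-length animal 1 and -0.42 without full-length animal 2, and it kept its sign in every setting run. It moved by more than the spread between animals on arrays 2 and 3 alone (-0.14) and without the full-length replicate 1 arrays (-0.039, 23 genes lower), a choice made with earlier results known. The count of genes with an adjusted p under 0.05 was 0, except with the replicate block (2) and on the replicate 1 arrays (5). The count lower at an unadjusted p under 0.05 (3) was 8 with the animal as a random block (19.0%, against 7.29% of all genes in that fit), 13 with the replicate block (31.0%, against 11.0%), 13 on the replicate 1 arrays (31.0%, against 16.7%), 1 without the full-length replicate 1 arrays (2.38%, against 6.27%), 5 with no filter (11.9%, against 4.45%) and 0 to 8 when an animal or array was left out. It was 0 without truncated animal 1 (against 1.47%) and 8 without full-length animal 2 (19.0%, against 11.0%). The count over all genes (0) was 345 with the random block, 817 with the replicate block, 287 with the animal number as a block, 3004 on the replicate 1 arrays, 1 where all 4 animals had to lie above the median, 2 with arrays centred, and 0 to 665 when an animal or array was left out, highest without full-length animal 2. The cause of these changes was not tested.

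Of the 19 genes described in full, some turned direction. On arrays 2 and 3 alone the differences were 0.033 for Dkc1, 0.39 for Npm1, 0.28 for Polr1a, -0.62 for Ubtf and 0.0023 for Wdr75. Without the full-length replicate 1 arrays they were 0.13 for Dkc1, 0.26 for Npm1, 0.26 for Polr1a and -0.19 for Ubtf. Ubtf was at -0.0618 as the mean of its probe sets and -0.28 by the second brightest, which gave -0.60 for Imp4. When an animal or array was left out, the differences ran from -0.27 to 0.17 for Ncl, -0.0558 to 0.41 for Nhp2, -0.28 to 0.0561 for Npm1, -0.44 to 0.11 for Polr1a and -0.0471 to 0.36 for Ubtf.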
